A study of Homo sapiens with 8 samples.

Results

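The SF3a and SF3b subunits are the proteins that turn the U2 snRNP into its active form. They were chosen by name: SF3B1, SF3B2, SF3B3, SF3B4, SF3B6 and PHF5A of SF3b, and SF3A1, SF3A2 and SF3A3 of SF3a, which makes 9 genes of 20720 with splice-junction reads in introns of 1 gene. All 9 passed the filter on low counts and were tested. SF3B5, the remaining small subunit of SF3b, has no intron and so gives no junction reads, and it is not among the 9. RNA came from K562 cells, an established human erythroleukaemia line with an SF3B1 gene labelled K700E or wild type (WT). K700E replaces the lysine of codon 700 and recurs in myelodysplastic syndromes. There were 2 libraries in each of 4 groups: K700E at day 4, wild type at day 4, K700E at day 8 and wild type at day 8. Per the labels' protocols, doxycycline at 1 µg/ml induced the modified allele, and this treatment is listed for all 8 samples, wild type included. The labels give neither the way in which the allele was modified nor the number of clones. They also do not say that replicates were separate cultures, so the p-values measure only the spread between these libraries, which may be technical.

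During splicing the U2 snRNP pairs with the branch point, a short stretch of intron upstream of the 3′ splice site (the acceptor). SF3a docks SF3b on U2, and SF3b holds the branch point duplex so that the branch adenosine bulges out. SF3B1 hotspot substitutions are known for the use of cryptic acceptors that lie a short distance upstream of the normal ones, where the mutant protein selects another branch point.

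The sequences shown are the mutated codon and the exon joins of the subunit transcripts at which an unannotated acceptor had more reads in K700E at day 4. They are from GENCODE release 29 transcripts on hg38 (GRCh38), 5′ to 3′. The codon 700 line has that codon in capitals, and the joins have the last 30 bases of the upstream exon in lower case and the first 30 of the downstream exon in capitals.
SF3B1 exon 15, codon 700 at chr2:197402108-197402110, minus strand: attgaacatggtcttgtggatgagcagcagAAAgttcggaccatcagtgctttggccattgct
SF3B1 exons 12 and 13, exon 13 at chr2:197402949-197403035, minus strand: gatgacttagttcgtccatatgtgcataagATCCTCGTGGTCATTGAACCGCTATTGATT
SF3A2 exons 5 and 6, exon 6 at chr19:2246753-2246802, plus strand: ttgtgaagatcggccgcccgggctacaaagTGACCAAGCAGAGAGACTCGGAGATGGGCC
SF3A2 exons 7 and 8, exon 8 at chr19:2247594-2247662, plus strand: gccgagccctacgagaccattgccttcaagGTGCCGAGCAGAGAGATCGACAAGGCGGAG
In each of these joins, a cryptic acceptor in the intron adds bases between the lower-case and the upper-case part. The added intronic bases were not analysed here.

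Each library held 49338071 to 77750812 uniquely mapped junction reads and 211347 to 470900 listed junctions. The lowest junction number was in wild type day 8 replicate 1, although it had 71039050 reads, so a 0 for a rare junction in it carries less weight. The K700E base itself is not seen in junction counts. As a check of the labels, upstream cryptic acceptors were looked up for 14 known SF3B1 hotspot targets, such as MAP3K7 and DLST. The site taken for SEPTIN6 lay on chromosome 2 and may not belong to that gene. Median use over the 14 was 39.8% and 37.9% in the K700E libraries at day 4. In wild type at day 4 it was 1.55% and 1.89%. Libraries labelled K700E day 8 had medians of 2.19% and 40.9%, and those labelled wild type day 8 had 0.728% and 47.7%. Thus 1 library of each genotype at day 8 did not follow its label. Libraries were kept in their labelled groups, and every day 8 comparison below goes by the labels. The alignment logs place the day 4 libraries in 1 folder (April), the day 8 wild-type libraries in another (Feb) and the day 8 K700E libraries in yet another (March), so day and folder, and genotype and folder at day 8, cannot be told apart. Of 10 erythroid markers 9 averaged at least 1 CPM. Of 9 epithelial markers 5 did, and KRT5 was at 0 in every group, although a label calls the cells epithelial.

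At day 4, none of the 9 subunit genes passed edgeR's test between K700E and wild type, while DESeq2 called SF3A3, and the K700E-bearing gene itself differed by less than the spread between libraries. Levels are CPM of junction reads after TMM scaling, and in bulk RNA fewer cells of a type and less RNA per cell cannot be told apart. SF3B1, the HEAT-repeat scaffold that carries the substitution (ENSG00000115524.15, chromosome 2, 197389784 to 197435091, minus strand), had 720 and 704 CPM in K700E and 755 and 656 CPM in wild type. The 2 groups overlapped, with a log2 change of 0.03 (SE 0.12, edgeR adjusted p 0.922). Across all genes, 74 of 13991 were called at an adjusted p under 0.05, or 0.529% (0.229% higher and 0.300% lower in K700E), against 0 of the 9 subunits. At an unadjusted p under 0.05 it was 2 of 9, SF3A3 and SF3B3, against 21.3% of all genes.

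The largest difference at day 4 was in SF3A3, the SF3a subunit that contacts the U2 RNA. Its level was 567 and 616 CPM in K700E and 381 and 439 CPM in wild type. The groups did not overlap, and their means were 591 ± 34.6 and 410 ± 41.6 CPM (SD, n = 2 each). The log2 change was 0.54 (SE 0.13), with an unadjusted p of 0.00706 and an adjusted p of 0.120 by edgeR's quasi-likelihood test. DESeq2 gave SF3A3 an adjusted p of 0.0129, where it called 1640 of the 13177 genes it gave an adjusted p (12.4%). The call was also made without the filter on low counts (adjusted p 0.0313, with 7.95% of genes called) and without K700E replicate 1 (0.0194, with 17.6%). So SF3A3 stood near the threshold, on a background that itself moved with the test.

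SF3B3, a beta-propeller protein that cradles SF3B1, showed the next largest difference. It had 572 and 654 CPM in K700E and 479 and 433 CPM in wild type at day 4, with means of 613 ± 57.9 and 456 ± 33.1 CPM (SD, n = 2 each). The log2 change was 0.44 (SE 0.13, edgeR adjusted p 0.155), and the adjusted p was 0.0326 without K700E replicate 1. At day 8 SF3B3 had 596 and 667 CPM in the libraries labelled K700E and 480 and 482 CPM in those labelled wild type. By the labels, the K700E libraries of SF3B3 lay above the wild-type ones at both days, with a log2 change at day 8 of 0.36 (SE 0.20, edgeR adjusted p 1.00). The day 8 order rests on labels that 2 libraries did not follow at the known targets.

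The other 6 subunits differed less at day 4. SF3B4, an RNA-binding protein that contacts the pre-mRNA upstream of the branch point, had 47.6 and 42.7 CPM in K700E and 42.3 and 34.3 CPM in wild type, a log2 change of 0.25 (SE 0.17, edgeR adjusted p 0.448). SF3A1, the ubiquitin-like domain subunit that holds SF3a together, had 298 and 289 CPM in K700E and 282 and 278 CPM in wild type. Without overlap between groups, the K700E libraries were higher in 4 of 9 subunits (SF3B3, SF3B4, SF3A1 and SF3A3) and lower in 0, against 26.4% of genes higher and 28.2% lower among 13946 genes. Values of K700E and wild type overlapped for the remaining members. SF3A2, the zinc finger subunit of SF3a, had 254 and 222 CPM in K700E and 238 and 188 CPM in wild type. SF3B2, the partner of SF3B4, had 664 and 684 CPM in K700E and 684 and 709 CPM in wild type. SF3B6, the small protein that sits on SF3B1 near the branch point, had 139 and 150 CPM in K700E and 140 and 157 CPM in wild type. PHF5A, a small zinc-binding protein that forms the branch adenosine pocket together with SF3B1, had 17.9 and 14.4 CPM in K700E and 17.7 and 15.1 CPM in wild type. The log2 changes of SF3B2, SF3B6 and PHF5A were between -0.03 and -0.01 and turned positive when libraries were scaled by their total reads. Over the 9 subunits the median log2 change was 0.08, against 0.02 over all genes.

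**Figure D1:**
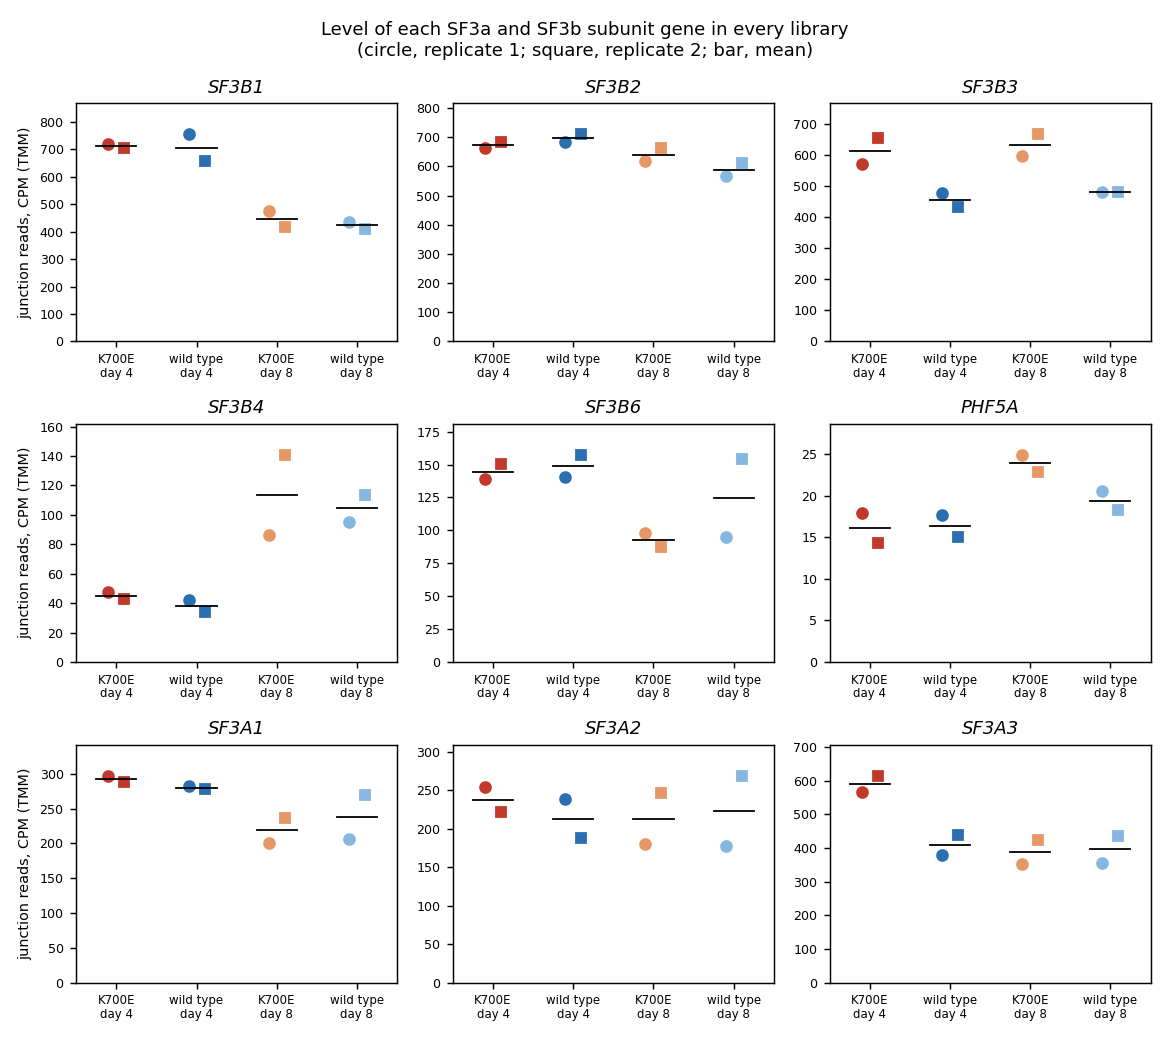
Level of each of the 9 genes in every library, as junction reads in CPM after TMM scaling on linear axes that start at 0; groups at day 8 are as labelled, and the bar is the mean of 2 libraries. SF3B1 sits between 411 and 476 CPM at day 8 and between 656 and 755 CPM at day 4, and SF3B4 between 86.0 and 141 CPM at day 8 and between 34.3 and 47.6 CPM at day 4.

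Markers of other lineages moved with genotype at day 4. The summed level of 7 megakaryocyte markers, 3 of which averaged at least 1 CPM, was 125 and 126 CPM in K700E and 12.6 and 24.2 CPM in wild type (lowest and highest library). ITGA2B made up most of it, with 98.2 and 99.2 CPM in K700E and 11.9 and 21.1 CPM in wild type. The summed level of the 9 epithelial markers was 488 to 688 CPM in K700E and 868 to 987 CPM in wild type, also without overlap. The erythroid sum was 889 to 1587 CPM in K700E and 1484 to 1798 CPM in wild type. Their part in the subunit levels was not tested.

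At day 8, 0 of the 9 subunits and 0 of 13990 genes (0%) passed the test between the labelled genotypes by edgeR. At an unadjusted p under 0.05 there were 0 of 9 subunits and 408 genes (2.92%), and DESeq2 called 20 genes. SF3B1 had 476 and 418 CPM in the libraries labelled K700E and 435 and 411 CPM in those labelled wild type. SF3B2 had 617 and 662 CPM in labelled K700E and 567 and 611 CPM in labelled wild type. PHF5A had 24.9 and 22.9 CPM in labelled K700E and 20.5 and 18.3 CPM in labelled wild type. Together with SF3B3, these made 3 of 9 subunits higher in K700E without overlap (SF3B2, SF3B3 and PHF5A), against 19.0% of all genes. SF3A3, the gene with the largest difference at day 4, had 353 and 425 CPM in labelled K700E and 357 and 436 CPM in labelled wild type. Its values overlapped by label. Replicate 2 of each label, high at the known targets, had 425 and 436 CPM, and replicate 1 of each had 353 and 357 CPM. SF3A1, SF3A2 and SF3B4 split in the same direction, SF3B1 in the other, and the remaining subunits overlapped. The share of all genes that split between these replicates was not computed, so the split is a description and no trait of the subunits. The reason for this split was not tested. For SF3A3, the test of whether the genotype difference itself differed between days also goes by the labels. It gave an unadjusted p of 0.0644 and an adjusted p of 0.559 by edgeR. That test passed for 0 of 14902 genes (0%), with 1371 at an unadjusted p under 0.05 (9.20%).

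Between the days, SF3B1 was lower and SF3B4 higher at day 8, a comparison over both genotypes that was added after the values were seen. SF3B1 averaged 435 ± 29.2 CPM at day 8 and 709 ± 40.9 CPM at day 4 (SD, n = 4 each), and every day 8 library lay below every day 4 library, as in 17.7% of all genes. Its log2 change was -0.70 (SE 0.11, edgeR adjusted p 0.00331). SF3B4 had 86.0 and 141 CPM in labelled K700E and 95.2 and 114 CPM in labelled wild type at day 8, and 34.3 to 47.6 CPM over the 4 day 4 libraries. Its log2 change of 1.39 (SE 0.18, edgeR adjusted p 0.00191) is a 2.62-fold higher level, and all of its day 8 libraries lay above those of day 4, as in 17.4% of all genes. The calls of both genes were kept under all 12 alternatives, with log2 changes of -0.76 to -0.53 for SF3B1 and 1.18 to 1.57 for SF3B4. SF3B4 was 1 of 9 subunits called higher and SF3B1 1 of 9 called lower, against 18.1% and 18.0% of all genes, so a call in this comparison was common. Markers moved between the days too. The epithelial sum was 1019 to 2608 CPM at day 8 and 488 to 987 CPM at day 4. KRT18 and KRT8 made up most of it, with KRT18 at 486 to 1192 CPM at day 8 and 216 to 473 CPM at day 4. EPCAM, from the same list, went the other way, with 6.90 to 32.2 CPM at day 8 and 74.3 to 112 CPM at day 4. The sum of 5 myeloid markers was 90.4 to 221 CPM at day 8 and 46.8 to 73.5 CPM at day 4. Only 1 of these 5, LYZ, averaged at least 1 CPM, and ELANE was at 0 in every group. LYZ made up nearly all of the sum, with 89.6 to 221 CPM at day 8 and 46.7 to 73.3 CPM at day 4. The erythroid sums overlapped, with 986 to 1689 CPM at day 8 and 889 to 1798 CPM at day 4. The part of these markers in the subunit levels was not tested.

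The other 7 subunits did not pass edgeR's test between the days, and 4 of them had an unadjusted p under 0.05 by edgeR, which with SF3B1 and SF3B4 made 6 of 9 against 46.3% of all genes. SF3B6 had a log2 change of -0.45 (edgeR adjusted p 0.0737). SF3B6 measured 98.4 and 87.1 CPM in labelled K700E and 95.4 and 154 CPM in labelled wild type at day 8. Without 1 library at a time its log2 change ran from -0.65 to -0.30. PHF5A changed by 0.41 (adjusted p 0.0723), SF3A1 by -0.33 (0.0805) and SF3A3 by -0.33 (0.0853), all on the log2 scale and by edgeR. Some of these calls depended on the tool or the scaling. DESeq2 also called SF3B6 (adjusted p 0.0400) and PHF5A (0.0438), where it called 42.6% of all genes. With the replicate number as a block, edgeR also called SF3A3 (0.0480), where it called 35.4%. With libraries scaled by their total reads, edgeR called 3 of the 9 subunits, where it called 5314 of 14902 genes. SF3A1 had 201 and 237 CPM in labelled K700E and 206 and 269 CPM in labelled wild type at day 8. SF3A2 had 180 and 246 CPM in labelled K700E and 178 and 269 CPM in labelled wild type at day 8, so its libraries of 1 genotype lay further apart than the genotypes. SF3B2, SF3B3 and SF3A2 changed by -0.16, 0.06 and -0.04.

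The distribution of reads along 6 of the 9 genes differed between the days without overlap, 4 with a higher 5′ share at day 8 and 2 with a lower one, while SF3A1, SF3A2 and PHF5A overlapped. The share of all genes with such a difference was not computed. The count is thus a description and does not show that the subunits differ from other genes. The share of reads over introns on the 5′ side of the middle of SF3B4 was 42.1% to 43.9% at day 8 and 51.3% to 60.2% at day 4. In SF3B2 it was 37.7% to 42.7% at day 8 and 32.1% to 33.0% at day 4, and in SF3B1 44.2% to 46.6% at day 8 and 43.1% to 44.1% at day 4. The part of this shift in the gene levels was not tested.

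**Figure D2:**
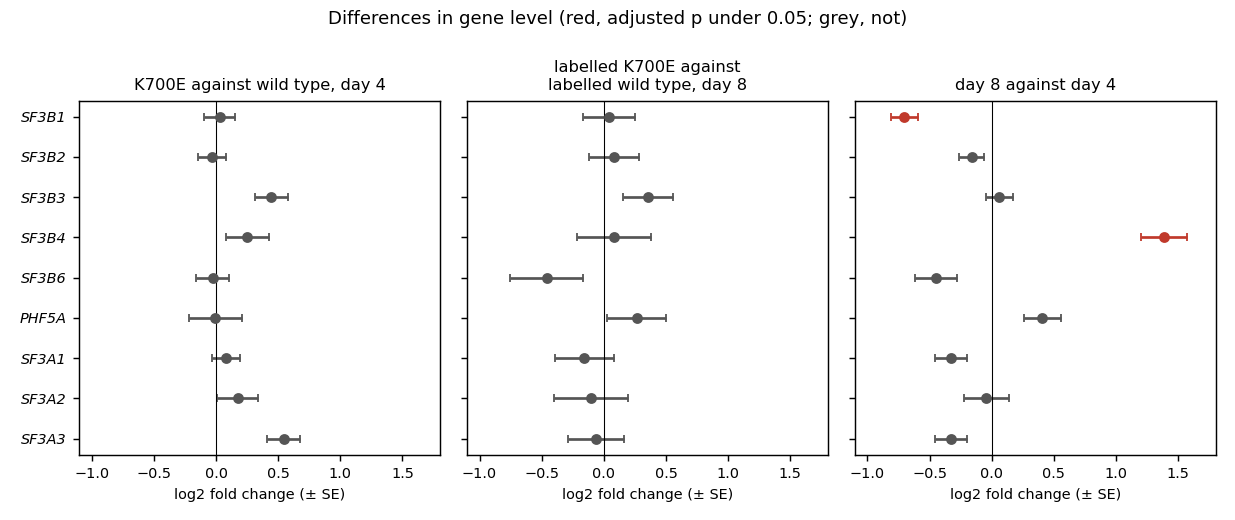
Log2 fold change of each subunit gene with its standard error for 3 comparisons, each with the first-named group over the second; red points passed at an adjusted p under 0.05 by edgeR. SF3B1 (-0.70) and SF3B4 (1.39) passed between the days, and no subunit passed between the genotypes.

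Set per intron, so that genes of different length can be compared, SF3B6 had the highest mean level over the 8 libraries (42.6 CPM per intron) and PHF5A the lowest (6.24). Between them came SF3B2 (30.8), SF3A3 (27.9), SF3A2 (27.7), SF3B1 (23.7), SF3B3 (21.7), SF3A1 (17.2) and SF3B4 (15.1). Every pair of neighbours in this order overlapped over the 8 libraries, including SF3B4 (6.84 to 28.1 CPM per intron) and PHF5A (4.70 to 8.27). The order differed between the days. SF3B6 was first, SF3B2 next and PHF5A last at both, but SF3B4 averaged 21.8 CPM per intron at day 8, above SF3B1 (18.0) and SF3A1 (15.2), and 8.34 at day 4, below SF3B1 (29.4) and SF3A1 (19.1). Within SF3B1, intron 19 had the highest mean, with 23.7 to 47.5 CPM, and was the highest in 7 of 8 libraries (intron 16 in wild type day 8 replicate 1), and intron 1 averaged the least, with 8.74 to 19.8 CPM. Intron 12 had 19.8 and 11.3 CPM in labelled K700E and 8.97 and 9.22 CPM in labelled wild type at day 8, and intron 15 had 22.1 and 17.3 CPM in labelled K700E and 19.8 and 14.9 CPM in labelled wild type. The lower level over introns 11 to 13 was thus seen in 3 of the day 8 libraries and not in labelled K700E replicate 1. It was seen at day 4 too, where intron 12 had 20.7 to 23.2 CPM and intron 15 had 25.7 to 27.4 CPM.

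**Figure D3:**
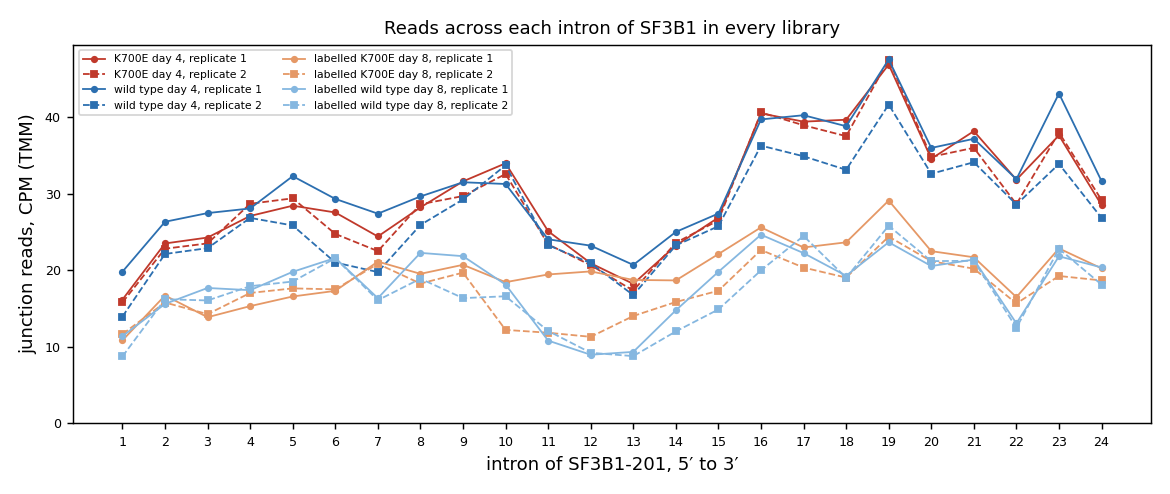
Reads in CPM across each of the 24 introns of the SF3B1 reference transcript, from 5′ to 3′, with 1 line per library and groups at day 8 as labelled. The day 8 libraries run below the day 4 libraries over most introns, intron 19 has the highest mean with up to 47.5 CPM, and the lines dip near introns 11 to 13 except in labelled K700E day 8 replicate 1.

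The genes closest to SF3B1 in pattern were ranked by the root mean square difference of their centred log2 levels over the 8 libraries, among 12856 genes. They were ACBD5 (0.0694), USP9X (0.0769), TIA1 (0.0775), CBX3 (0.0785) and ABCC4 (0.0827). TIA1 is an RNA-binding splicing regulator and CBX3 a heterochromatin protein. USP9X, a deubiquitinase, had 498 and 444 CPM in labelled K700E and 475 and 449 CPM in labelled wild type at day 8, and 772 and 717 CPM in K700E and 692 and 698 CPM in wild type at day 4. The nearest other subunit was SF3A1, at rank 1322 (0.256).

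In splicing, 3 unannotated upstream acceptors of the subunit genes had an adjusted p under 0.05 by edgeR at day 4 with higher use in K700E, 1 in SF3B1 and 2 in SF3A2, and none of them differed by 5 points. Use is the share of unique reads from the same donor that go to an acceptor, and a junction counted as called at an adjusted p under 0.05 and a difference of at least 5 percentage points. Of 64 subunit junctions tested for acceptor use, 0 met both conditions, against 326 of 69838 over all genes (0.467%). The adjusted p alone passed for 3 of 64, all higher in K700E, against 0.760% of all junctions in either direction and 0.570% higher. These 3 met the read filter through the K700E libraries, where they were high, so their number is a description and no support. Of 54 subunit junctions tested for donor use, 0 were called at any size, against 0.0309% of 64625 with the 5 points and 0.0573% without (0.0232% higher in K700E). At an unadjusted p under 0.05 these counts were 8 of 64 (7.02% of all) and 6 of 54 (5.65% of all) by edgeR.

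The SF3B1 transcript itself carried the cryptic acceptor with the largest difference. Its intron 12, between the exons printed above, could end at position 197403060 in place of 197403036, so that exon 13 (87 bases, coding) would start 24 bases earlier, a multiple of 3. This site lies in the same gene that carries codon 700, which is in exon 15. Its use was 4.90% (78 of 1593 reads, 95% Wilson interval 3.94% to 6.07%) and 4.07% (53 of 1303, 3.12% to 5.28%) in K700E at day 4. In wild type at day 4 it was 0.567% (7 of 1235, 0.275% to 1.17%) and 0% (0 of 1293, 0% to 0.296% by Wilson, with 3 reads equal to 0.232%). The groups did not overlap, and the difference was 4.20 points (edgeR adjusted p 0.0188). At day 8 its use was 0.316% (3 of 949) and 5.92% (44 of 743) in the libraries labelled K700E, and 0% (0 of 646, where 3 reads equal 0.464%) and 7.70% (48 of 623) in those labelled wild type. The day 8 libraries with a high value were the ones in which the known targets were high.

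In SF3A2, whose product binds SF3A1, the last exon but one had a cryptic acceptor at position 2247565, 28 bases upstream of the reference one at 2247593. The 28 bases, not a multiple of 3, would lengthen exon 8 (69 bases). Its use was 2.31% (41 of 1775 reads, 95% Wilson interval 1.71% to 3.12%) and 2.29% (30 of 1309, 1.61% to 3.25%) in K700E at day 4. In wild type at day 4 it was 0% in both libraries (0 of 1207 and 0 of 1146, with Wilson upper bounds of 0.317% and 0.334%, where 3 reads equal 0.249% and 0.262%). The difference was 2.30 points (edgeR adjusted p 0.00371), for a site that met the read filter at day 4 only because of its K700E reads. At day 8 it was 0.184% (2 of 1086) and 5.59% (104 of 1859) in labelled K700E, and 0% (0 of 1626) and 2.59% (43 of 1660) in labelled wild type. Replicate 2 of each labelled genotype was high and replicate 1 low, as for SF3B1.

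A second cryptic acceptor of SF3A2 lies outside the 50 bases of the naming rule and was picked after the fact for its adjusted p, so that p is not given. It preceded exon 6 (50 bases). It ended intron 5 at position 2246695, 57 bases upstream of 2246752, again a multiple of 3. Its use was 2.45% (70 of 2855 reads) and 1.97% (41 of 2078) in K700E at day 4, and 0.209% (4 of 1913) and 0.333% (6 of 1802) in wild type at day 4. The groups did not overlap, and the difference was 1.94 points. At day 8 its use was 0.0782% (1 of 1279) and 1.10% (24 of 2174) in labelled K700E, and 0% (0 of 1652) and 1.69% (38 of 2255) in labelled wild type. From the same donor, an acceptor 67 bases upstream had 12 and 6 reads in K700E and 0 and 0 in wild type at day 4.

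The 3 differences kept their direction under every alternative at day 4, while their calls depended on the setting. With limma the adjusted p was 0.161 for SF3B1 and 0.127 for the 28-base site of SF3A2, and with all 8 libraries in 1 fit it was 1.00 for both. Without 1 library at a time it was 0.0708 to 0.338 for SF3B1, lost without any of the 4 libraries, and for the 28-base site it was 0.148 and 0.204 without wild type replicate 1 or 2. Without either K700E library the 28-base site fell under the read filter and was not fitted. The 57-base site also lost its call with limma, with all 8 libraries and without any 1 library. At day 8, 0 of 51 subunit junctions passed for acceptor use and 0 of 48 for donor use, as did 0 of 63314 and 0 of 59492 over all genes (0% each), with 2.79% and 2.78% at an unadjusted p under 0.05 by edgeR. For the test of whether the genotype difference in use differed between days, 0 of 77 acceptor and 0 of 73 donor junctions of the subunits passed, with 5 and 7 at an unadjusted p under 0.05 against 5.93% and 5.65% of all junctions.

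**Figure D4:**
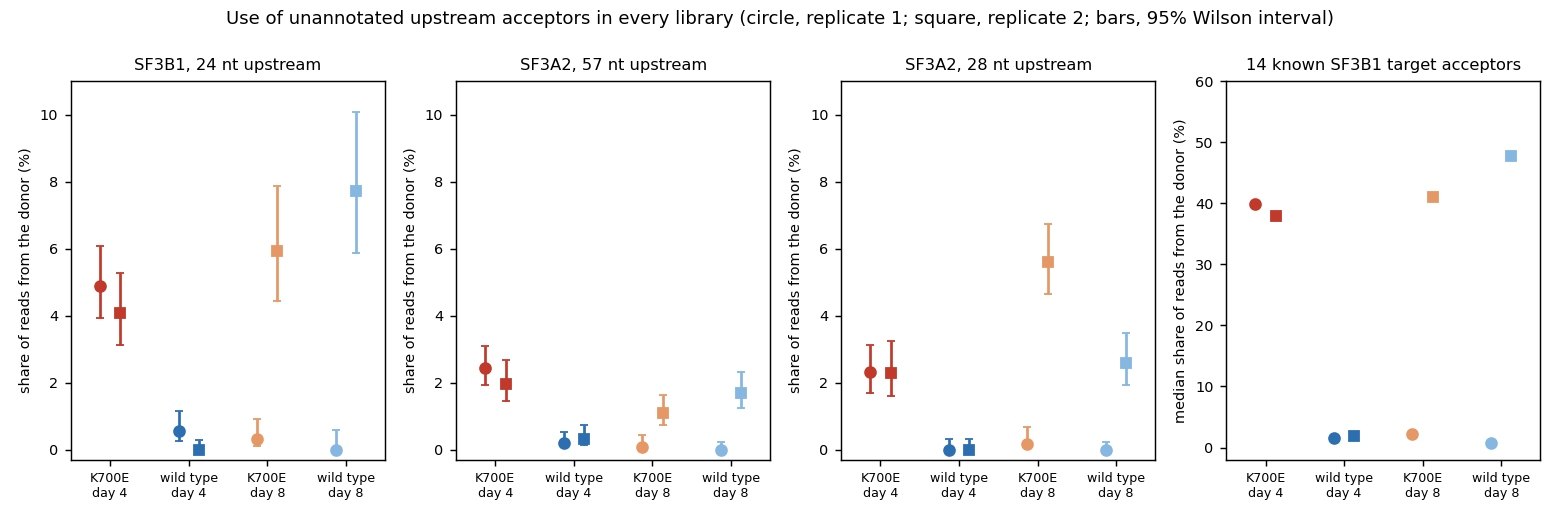
Use of the 3 unannotated upstream acceptors of SF3B1 and SF3A2 in every library. Values are percent of unique reads from the donor, with 95% Wilson intervals. Beside them is the median use at the 14 acceptors of the label check, and groups at day 8 are as labelled. At day 4 the K700E points lie above the wild-type points in each panel, and at day 8 replicate 2 of both labelled genotypes is high and replicate 1 low.

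Among 120 introns of the 9 reference transcripts, 6 held an unannotated acceptor 1 to 50 bases upstream of the reference one that passed the read filter, spread over 5 genes. Besides those of SF3B1 and SF3A2 these were in SF3B2 (19 bases upstream), SF3B3 (21 bases) and SF3B6 (37 and 18 bases). All 4 were little used. The SF3B3 site, before exon 25, had 0.359% and 0% in K700E and 0% and 0% in wild type at day 4, and 0% and 0.190% in labelled K700E and 0% and 0.463% in labelled wild type at day 8. The SF3B6 site 18 bases upstream of exon 3 had 0.358% and 0% in K700E and 0.437% and 0.536% in wild type at day 4, so that its values did not follow the pattern of SF3B1. The SF3B6 site 37 bases upstream, before exon 4, stayed at or under 0.188% in every library, and the SF3B2 site, before exon 21, at or under 0.321%. SF3B4 and PHF5A had no junction that could be tested for acceptor use at day 4.

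SF3B2 was the subunit with the most used annotated alternative acceptors, at 2 places where acceptors lie 3 bases apart. The exon joins are printed from GENCODE release 29 on hg38, each headed by its downstream exon and that exon's position. The first 30 bases of each line are the end of the upstream exon (exon 4 or exon 6). The capitals are the first 3 bases of the named exon, which the downstream acceptor leaves out.
SF3B2 exon 5, chr11:66055535-66055585, plus strand: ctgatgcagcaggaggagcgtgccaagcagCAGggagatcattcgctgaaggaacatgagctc
SF3B2 exon 7, chr11:66057266-66057375, plus strand: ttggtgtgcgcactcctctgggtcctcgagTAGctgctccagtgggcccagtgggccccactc
At exon 5 the downstream acceptor took 13.1% and 11.6% in K700E and 15.7% and 8.91% in wild type at day 4, and 7.64% and 11.8% in labelled K700E and 9.49% and 13.5% in labelled wild type at day 8. The groups overlapped at both days, with a difference of 0.0540 points at day 4 (edgeR adjusted p 1.00). At exon 7 it took 5.86% and 4.58% in K700E and 6.51% and 4.99% in wild type at day 4, and 6.53% and 6.81% in labelled K700E and 4.44% and 6.09% in labelled wild type at day 8. That difference, -0.53 points at day 4, was also within the spread (edgeR adjusted p 1.00).

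Other alternatives of the subunit genes were extra or skipped exons, used at a few percent, and none passed the test at either day. SF3B3 had an annotated exon of 29 bases in intron 11 (chromosome 16, 70550650 to 70550678), with inclusion of 5.84% and 3.65% in K700E and 8.62% and 6.32% in wild type at day 4. Inclusion is the mean of the reads on both sides of the exon over that mean plus the skipping reads. The groups did not overlap there, but at day 8 it was 4.55% and 2.49% in labelled K700E and 2.21% and 3.07% in labelled wild type, and its acceptor had an edgeR adjusted p of 0.833 at day 4. SF3A3 had an unannotated junction (chromosome 1, 37969736 to 37979464) that skips exons 10 to 12, 246 bases. It took 2.89% and 2.34% in K700E and 5.59% and 5.01% in wild type at day 4, without overlap, and 1.83% and 1.77% in labelled K700E and 1.16% and 1.65% in labelled wild type at day 8. The difference at day 4 was -2.69 points (edgeR adjusted p 0.419).

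An unannotated junction of SF3B3 that skips exon 8 (104 bases, chromosome 16, 70538461 to 70541668) took 3.36% and 2.50% of the donor side in K700E and 5.20% and 5.24% in wild type at day 4. At day 8 it took 2.62% and 1.46% in labelled K700E and 0% and 3.41% in labelled wild type. The difference at day 4 was -2.11 points as acceptor use (edgeR adjusted p 0.734). The first intron of SF3B3 also held an annotated exon of 154 bases (70524864 to 70525017), included at 3.11% and 2.92% in K700E and 3.71% and 3.64% in wild type at day 4. At day 8 it was included at 4.06% and 3.39% in labelled K700E and at 1.62% and 3.16% in labelled wild type. Forms of 151 and 76 bases share its downstream junction, so its inclusion also holds reads of these forms. In K700E at day 4 the exon of 154 bases had 20 and 11 upstream reads and 59 and 61 downstream reads.

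SF3B1 had 2 such exons. The exon of 56 bases in intron 4 (chromosome 2, 197418896 to 197418951) was included at 3.42% and 1.89% in K700E and 4.26% and 3.49% in wild type at day 4. The exon of 70 bases in intron 20 (197398969 to 197399038), whose upstream junction is not in GENCODE release 29, was included at 3.28% and 3.97% in K700E and 6.35% and 3.50% in wild type at day 4. At day 8 the exon in intron 4 was included at 2.99% and 1.17% in labelled K700E and at 1.84% and 4.16% in labelled wild type, and the exon in intron 20 at 3.03% and 2.75% in labelled K700E and at 6.95% and 2.26% in labelled wild type. The groups of the intron 20 exon overlapped at both days, and the donors of both exons had an edgeR adjusted p of 1.00 at day 4. PHF5A had an unannotated exon of 51 bases in intron 3 (chromosome 22, 41462686 to 41462736), which rested on at most 15 reads a junction. Its inclusion was 0.514% and 1.14% in labelled K700E and 3.90% and 1.69% in labelled wild type at day 8, and 0% to 0.798% over the day 4 libraries.

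**Figure D5:**
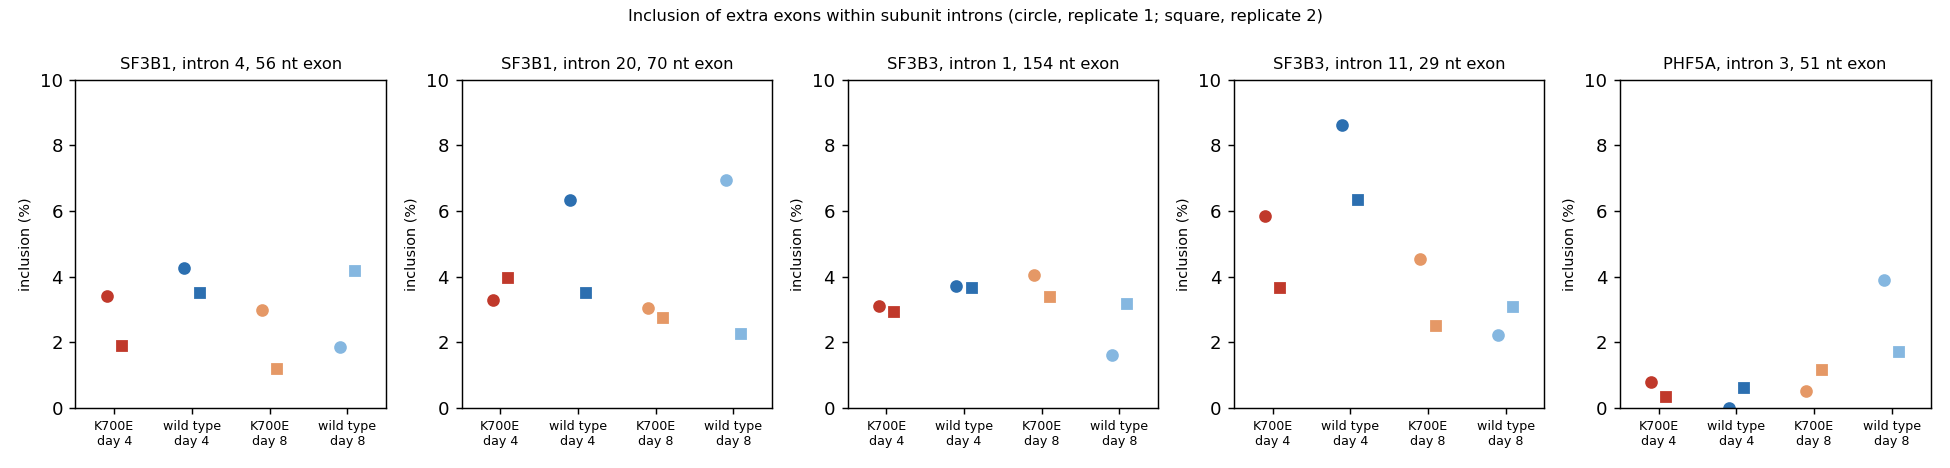
Inclusion of extra exons within subunit introns in every library, in percent, on axes that start at 0. Exons with a mean inclusion of at least 1% are plotted, and groups at day 8 are as labelled. Where an intron held several forms, only the form with the most upstream reads is plotted. Inclusion stays under 10%, and the SF3B3 exon of 29 bases has its highest value, 8.62%, in a wild-type library at day 4.

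Reads on junctions that are not in GENCODE release 29 were a small share of each gene. They made up 0.420% to 0.526% of SF3B1 reads in 3 day 4 libraries and 0.337% in the other, wild type replicate 2. PHF5A had the highest share in any library (3.71%), and SF3B4 the lowest (0%). Multi-mapped reads were 0.817% of the reads of SF3A1 and less in the other 8 genes.

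The partners of SF3a and SF3b showed 0 calls at day 4, like the subunits, where edgeR called 0.529% of all genes. In lists this short, 0 calls is near that share and is no trait of the partners. Of 9 U2 snRNP core proteins, which form the Sm ring and the other proteins of the particle, 6 were higher and 3 lower in K700E, with 0 called. The largest differences were those of SNRPF (-0.51, edgeR adjusted p 0.132), SNRPE (0.36, 0.292) and SNRPD1 (0.27, 0.375), given as log2 changes. Of a list of 14 U2-associated and branch site factors, which also held the SF3b subunit SF3B5, 13 were tested (all but SF3B5) and 0 were called. Among them 11 were higher in K700E, with a median log2 change of 0.16 against 0.02 over all genes. SUGP1, a G-patch protein known to lose its contact with hotspot-mutant SF3B1, had the largest (0.93, edgeR adjusted p 0.0651), before DDX46 (0.74, 0.0896), the helicase that acts on SF3B1, and DDX39B (0.52, 0.335). The value of DDX39B rests on a low count, with 5.11 and 4.21 CPM in K700E and 3.51 and 3.04 CPM in wild type. U2AF1, also among those tested, had 0.182 to 0.388 CPM at day 4. Only unique reads over introns annotated to 1 gene were counted, so these values need not be the full level of either gene.

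Of 12 partners in the activated spliceosome, 0 were called and 6 were higher, with log2 changes of 0.53 for DHX16 and for EFTUD2 (edgeR adjusted p 0.140 and 0.122) and 0.29 for PRPF19 (0.323). Of 10 proteins of the minor spliceosome, which shares SF3b with the major one, 0 were called. RNPC3 had a log2 change of 0.66 (edgeR adjusted p 0.150), ZCRB1 of -0.54 (0.114) and CENATAC of -0.35 (0.500). At day 8 against day 4, 7 of the 9 core proteins were called lower and 0 called higher by edgeR (18.0% and 18.1% of all genes), with a median log2 change of -0.43 against 0.00 over all genes. In the same comparison 3 U2-associated factors were called higher and 1 called lower, 1 activated-spliceosome partner was called higher and 5 called lower, and 2 minor spliceosome proteins were called higher and 4 called lower, where 36.0% of all genes were called. At day 8, 0 members of any of these lists were called between the labelled genotypes, where 0% of all genes were.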

How the data were processed

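Strand-specific libraries were made from total RNA, per the labels' protocols. Reads were trimmed with cutadapt and aligned to hg38, per the submitters' processing notes, with STAR 2.7.0e, GENCODE release 29 in the index and release 22 added at mapping, per the file headers. The deposited values are raw counts of uniquely mapped and multi-mapped reads per splice junction. An unannotated canonical junction needed an overhang of 12 bases, per the file headers.

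Unique reads were summed per gene over introns annotated to 1 gene. Genes passing the filter on low counts were tested with edgeR 4.0.16 (R 4.3.3), TMM factors and the quasi-likelihood test, with the 4 libraries of each day fitted alone and 8 libraries for the interaction and the days. Junction use was tested with edgeR's diffSpliceDGE, for junctions with at least 5 reads in 2 libraries at sites averaging at least 20 reads. P-values were Benjamini-Hochberg adjusted over all features. Alternatives used limma 3.58.1, DESeq2 1.42.0 and other filters and scalings. Steps were tested on simulated day 4 data with known changes. At an adjusted p under 0.05, edgeR recovered 1.49% of genes changed 1.5-fold, 32.8% changed 2-fold and 60.6% changed 4-fold. For acceptor use it recovered 31.3% of changes of 5 points. A subunit that did not pass may thus still differ by such an amount. Intervals and floors (3 reads) cover counting error only.

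The members and lists were chosen with earlier results of these data known. Named were all 9 genes, alternatives with at least 5% use in a group, upstream acceptors within 50 bases, the 5 genes most like SF3B1 and the 3 largest day 4 differences per list.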

Additional observations from a re-analysis of the deposited data

How the results depend on the processing

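Precision is limited by 2 libraries a group and by the 623 to 2855 reads behind each use value of the cryptic acceptors. The number of genes called at day 4, 74 by edgeR, was 1640 with DESeq2, 1567 without the expression filter, 0 with all 8 libraries in 1 fit, 126 with the replicate block and 0 to 2536 without 1 library at a time (0 without either wild-type library). DESeq2 called 20 genes at day 8. Between the days 5369 genes were called, and 2897 to 5980 without 1 library.

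For acceptor use at day 4 (326 junctions), 216 were called at 10 points, 531 on the adjusted p alone, 0 with all 8 libraries and 8 to 110 without 1 library. For donor use at day 4 (20 junctions), it was 81 with limma, 38 with at least 10 reads, 56 with at least 1 read, 13 at 10 points, 0 with all 8 libraries, 8 with the replicate block and 0 to 58 without 1 library. Interactions, 0 for both, gave 0 to 38 acceptor and 0 to 180 donor junctions without 1 library. The cause of these shifts was not tested.

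The replicate numbers are the only link between libraries of 2 groups. The deviations of replicate 1 correlated at 0.153 between K700E and wild type at day 4 and at 0.264 at day 8, over 2 pairs each. With the block, SF3A3 between the days had an adjusted p of 0.0480 by edgeR, and no other subunit gene or named junction changed its call.

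Signs turned for small differences. Scaled by total reads, the day 4 log2 changes were 0.067 for SF3B2, 0.092 for PHF5A and 0.073 for SF3B6, and those between the days 0.015 for SF3B2 and 0.13 for SF3A2. Without 1 library at a time, the day 4 log2 changes ran from -0.073 to 0.13 for SF3B1, from -0.17 to 0.13 for PHF5A and from -0.11 to 0.054 for SF3B6. At day 8 they ran from -0.052 to 0.15 for SF3B1, -0.30 to 0.40 for SF3B4, -0.32 to 0.050 for SF3A1, -0.36 to 0.22 for SF3A2 and -0.19 to 0.090 for SF3A3. Between the days they ran from -0.22 to 0.081 for SF3A2 and from -0.0017 to 0.11 for SF3B3. For junctions without 1 library, day 4 differences ran from -3.36 to 3.47 points (SF3B2 exon 5), -1.29 to 0.23 (SF3B2 exon 7) and -2.34 to 0.56 (SF3B1 intron 20). At day 8 they ran from -3.88 to 0.32 (SF3B2 exon 5), -1.09 to 0.26 (SF3A2, 57 bases), -4.59 to 2.07 (SF3B1, 24 bases), -2.56 to 0.055 (SF3B1 intron 4), -1.37 to 2.04 (SF3B3 exon 8) and -0.40 to 1.63 (SF3B3 intron 11). None of these was past the threshold in the fit reported.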

Other observations

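From the donor of SF3A2 intron 7, a further unannotated acceptor lay 102 bases upstream of the reference one. It took 0.451% and 0.229% of reads in K700E and 0.0829% and 0.785% in wild type at day 4, where the groups overlapped. At day 8 it took 0.0921% and 1.13% in labelled K700E and 0% and 1.33% in labelled wild type.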
